A study of Mus musculus with 21 samples.

Results

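The endoplasmic reticulum folding and stress genes are a list of 40 mouse genes whose products fold, check, move or destroy secreted and membrane proteins, or sense when that work fails. The genes are listed by name, in a list drawn up with earlier results of these data known, and each was read from the array row whose annotation names that gene alone. Where a gene had several such rows, the brightest by mean over the 21 arrays was used. In all, 39 of the 40 were found among 22180 measured genes. Pdia4, a disulfide isomerase, has a row that names a microRNA gene beside it and was not analysed here. The 39 comprise 16 chaperones and folding enzymes, 8 genes of degradation, 8 sensors and transcription factors, and 7 genes of translocation and signal processing. Nucb2, a calcium-binding protein, is counted in the chaperone and folding group throughout.

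Proteins that enter the endoplasmic reticulum are folded there by chaperones and disulfide isomerases, and those that fail are carried back to the cytosol and degraded. When unfolded protein builds up, the membrane sensors Ern1 (IRE1), Eif2ak3 (PERK) and Atf6 start the unfolded protein response, in which Xbp1, Atf4 and the cut form of Atf6 switch on chaperone, degradation and stress genes. Cells that secrete large amounts of protein, such as the pepsinogen-making chief cells of the stomach, keep this machinery at a high level without injury.

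RNA came from mouse stomach corpus cells sorted into 3 populations by Lgr5GFP, a green fluorescent marker of the gene for the Wnt pathway receptor Lgr5: high, low and negative. In the tamoxifen groups, mice had been injected with 0.27 mg of tamoxifen per g of body weight 24 hours before isolation, and there were 4 arrays for each population. In the control groups, mice were uninjected, and there were 3 arrays for each population. The 6 groups therefore share the reporter and the tissue and differ in injection and in sort gate. High doses of tamoxifen are known to kill parietal cells, the acid source of the corpus. The control mice received no vehicle, so injection and drug cannot be told apart. The study's design text calls the arrays technical replicates from separate sorting runs, so the p-values measure only the spread between these arrays. The number in each title was taken as the sorting run. By that reading each run held mice of 1 treatment, so run and treatment cannot be told apart either. Strain, sex, age and the form of the reporter allele are not given in the sources used here.

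Levels are log2 values as deposited, and 1 unit is a doubling. Array medians lay between 3.95 and 4.25, and arrays of a group correlated at 0.927 to 0.985 over all genes. Lgr5 averaged 8.79 ± 0.38 (SD, n = 3) in control high, 7.56 ± 0.13 (SD, n = 3) in control low and 4.41 ± 0.39 (SD, n = 3) in control negative cells. The negative control arrays carry "low" in 1 label field and "neg" in their titles, and were taken as negative. Pgc, pepsinogen C, had group means of 13.17 to 13.36 in all 6 groups, the negative sort included. As a background level, the 95th percentile of 1105 olfactory receptor genes was 4.16, and the mean of each of the 39 genes over 21 arrays lay above it. Trib3 lay closest to it, with arrays at 3.90 to 5.43.

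Tamoxifen minus control was fitted in limma for each population, with all 22180 genes in the adjustment, and a gene is said to have fallen or risen where its Benjamini-Hochberg adjusted p was under 0.05. In low cells 21 of the 39 genes fell and 0 rose, against 2.98% of all genes that fell and 5.35% that rose. In high cells 6 of 39 fell and 0 rose, against 1.04% and 1.7% of all genes. In negative cells 1 of 39 fell and 0 rose, against 0.703% and 1.62% of all genes. The median difference over the 39 genes was -0.67 in low, -0.37 in high and -0.14 in negative cells, while the median over all genes was 0.01, 0.00 and 0.00. In sorted bulk samples such as these, fewer cells of a type and less RNA per cell cannot be told apart.

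By role, 12 of 16 chaperones and folding enzymes, 4 of 8 degradation genes, 4 of 7 translocation genes and 1 of 8 sensors and transcription factors fell in low cells. The median difference was -0.82 for chaperones, -0.75 for degradation genes, -0.66 for translocation genes and -0.01 for sensors. In high cells 4 genes of the chaperone and folding group, Nucb2 among them, 1 degradation gene, 1 translocation gene and 0 sensors fell. The 6 genes that fell in high cells also fell in low cells, which is 6 of 6 high calls and 6 of 21 low calls. Magt1 alone fell in all 3 populations. Of the 3 differences, that in low cells was the lowest for 31 of 39 genes, and for 21 of 39 all 3 differences were below 0. The same counts over all genes are not given here. More of all genes also fell in low cells (2.98%) than in high (1.04%) or negative cells (0.703%). No gene of the 39 rose in any of the 3 populations. With no adjustment, 19 in high, 30 in low and 11 in negative cells had a limma p under 0.05 in either direction. The shares of all genes given here and below are for adjusted p and do not apply to such unadjusted counts. The share of all genes at an unadjusted p is not given. Such counts, here and below, are therefore not read as an excess over all genes.

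**Figure D1:**
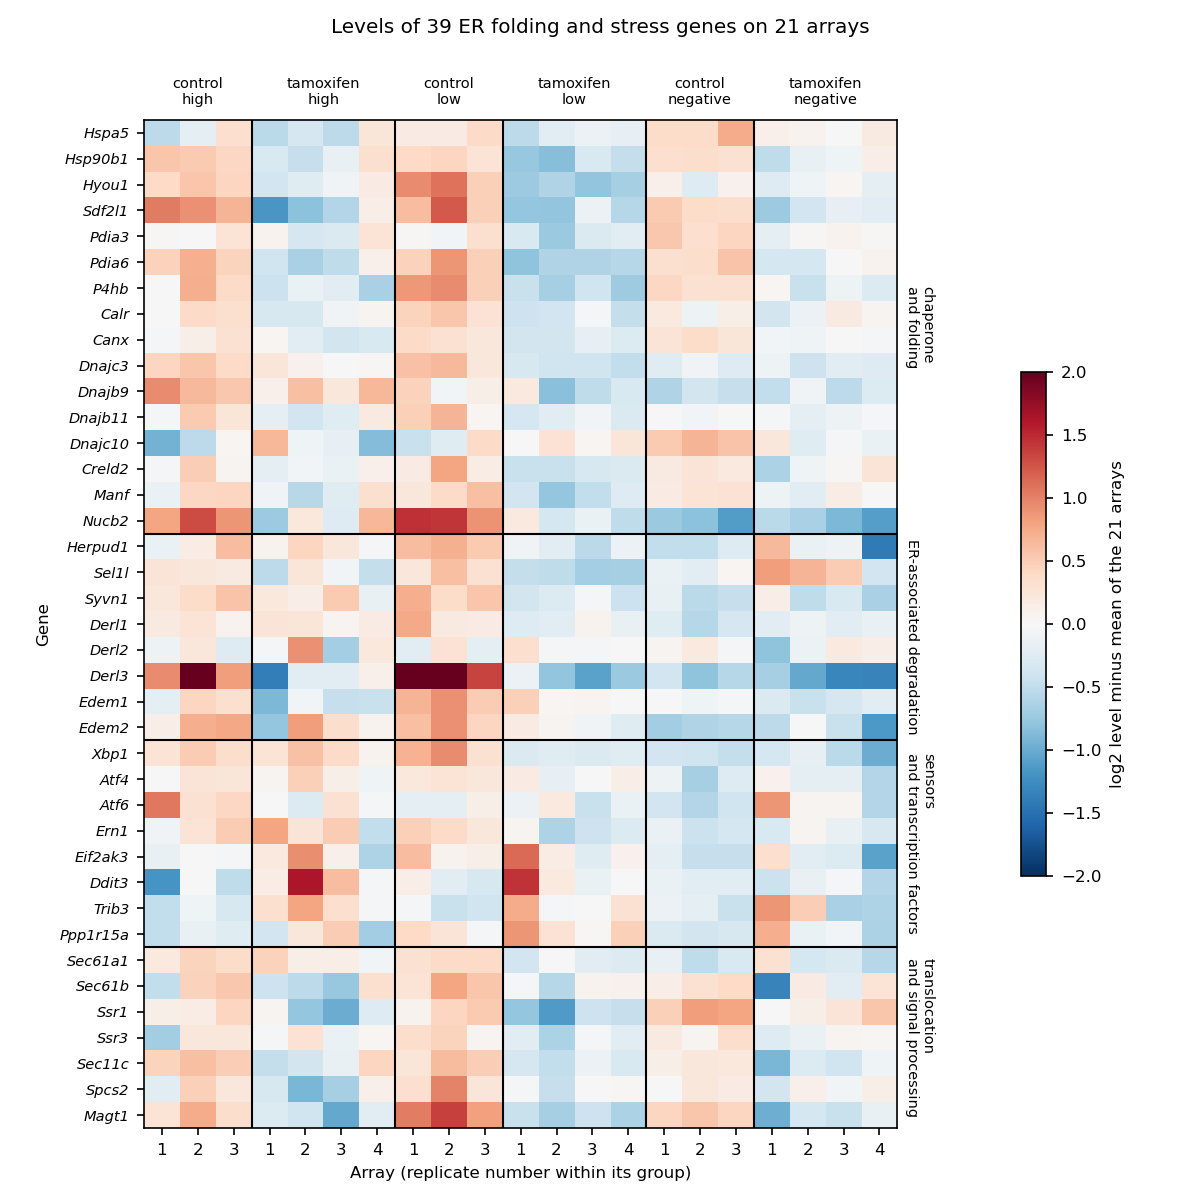
Log2 level of each of the 39 genes on each of the 21 arrays, shown as the difference from that gene's mean over the 21 arrays (red above, blue below, colours clipped at 2); rows are genes by role and columns are arrays by group. The control low block is red and the tamoxifen low block blue for most chaperones, while Ddit3, Trib3 and Ppp1r15a show red on single tamoxifen arrays.

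A regulatory sequence shared by many chaperone genes is the endoplasmic reticulum stress element (ERSE), known to be bound by Atf6 with the general factor NF-Y at its CCAAT end and by Xbp1. It was searched as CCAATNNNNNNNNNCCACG on both strands in windows of 300 bases, from 250 before to 50 after each RefSeq gene start on GRCm38.p6. Of the 39 measured genes and Pdia4, 34 had a promoter in the RefSeq table used. Atf6, Derl1, Sec61a1, Manf, Sec11c and Hyou1 had none there. The element was in 9 of these 34 genes (26.5%) and in 37 of 27025 genes in the whole table (0.137%). Since the element is known from chaperone genes such as these, the shares describe the list and are not a test. A second form, ERSE-II (ATTGG and CCACG with 1 base between them), was in Herpud1 and Dnajb11, which is 5.88% of the 34, and in 0.0444% of all genes. The 2 forms share CCACG and a CCAAT or its complement ATTGG, and no gene of the 34 held both. The sites before the gene start are printed because most of these genes are chaperones or degradation genes that fell in low cells, with 10 bases on either side; capitals mark the fixed letters of the element, and each is read 5′ to 3′ on the strand that spells it.
Calr ERSE at chr8:84847065-84847103, plus strand: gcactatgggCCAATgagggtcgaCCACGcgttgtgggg
Canx ERSE at chr11:50325790-50325828, minus strand: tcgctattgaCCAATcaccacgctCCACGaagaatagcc
Creld2 ERSE at chr15:88819510-88819548, minus strand: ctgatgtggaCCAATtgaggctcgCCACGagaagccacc
Derl3 ERSE at chr10:75893232-75893270, minus strand: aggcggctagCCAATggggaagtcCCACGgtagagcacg
Dnajc3 ERSE at chr14:118937817-118937855, plus strand: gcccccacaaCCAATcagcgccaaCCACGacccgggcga
Herpud1 ERSE-II at chr8:94386367-94386397, plus strand: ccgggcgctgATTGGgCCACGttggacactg
Hsp90b1 ERSE at chr10:86705628-86705666, minus strand: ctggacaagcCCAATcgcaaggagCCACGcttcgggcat
Hsp90b1 ERSE at chr10:86705523-86705561, plus strand: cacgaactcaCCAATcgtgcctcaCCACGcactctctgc
Hspa5 ERSE at chr2:34772015-34772053, plus strand: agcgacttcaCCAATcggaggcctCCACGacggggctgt
Pdia6 ERSE at chr12:17266481-17266519, plus strand: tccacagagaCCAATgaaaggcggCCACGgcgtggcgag
Syvn1 ERSE at chr19:6046522-6046560, plus strand: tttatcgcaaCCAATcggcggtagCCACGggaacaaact

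The 10 ERSE sites of the 9 genes lay 26 to 212 bases before the gene start, and their 9 spacer bases held 6 or 7 G or C. By role the element was in 7 of 15 chaperones and folding enzymes with a promoter, in 2 of 7 degradation genes, in 0 of 7 sensors and in 0 of 5 translocation genes. Hsp90b1 had 2 sites that point in opposite directions. The whole upstream windows of Derl3, which had the lowest difference of the 39, and of Hspa5, the classical target of the response, follow with their ERSE letters in capitals; in Derl3 the element reads on the other strand and so appears as its reverse complement.
Derl3 upstream window at chr10:75893148-75893397, plus strand: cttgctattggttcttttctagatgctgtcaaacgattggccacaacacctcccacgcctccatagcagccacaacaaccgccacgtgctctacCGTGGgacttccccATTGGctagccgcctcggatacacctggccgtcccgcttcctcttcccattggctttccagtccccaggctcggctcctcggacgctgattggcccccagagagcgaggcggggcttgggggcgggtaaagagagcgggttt
Hspa5 upstream window at chr2:34771840-34772089, plus strand: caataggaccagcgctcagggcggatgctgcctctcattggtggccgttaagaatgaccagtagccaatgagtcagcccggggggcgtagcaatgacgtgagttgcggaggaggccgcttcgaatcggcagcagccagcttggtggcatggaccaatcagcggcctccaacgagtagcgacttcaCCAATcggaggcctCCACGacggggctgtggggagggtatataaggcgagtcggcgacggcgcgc

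Genes with and without these elements were both among those that fell in low cells. Of 11 measured genes with ERSE or ERSE-II, 9 fell, with a median difference of -0.82 and a range of -2.92 to -0.49. Of 22 measured genes whose promoter held neither, 7 fell, with a median of -0.60 and a range of -1.61 to 0.54. Of the 6 without a promoter in the table, 5 fell. Over all genes 2.98% fell in low cells. These groups differ in role: the 11 are all chaperones or degradation genes, and the 22 include 7 sensors and 5 translocation genes. The part of the elements in the falls was not tested. The XBP1-type element TGACGTGG was in 0 of 34 genes and in 0.714% of all genes, and the ATF4 and C/EBP element TGATGNAA was in Herpud1 and Trib3 (5.88%) and in 4.51% of all genes. A match describes letters in a window and does not show that a factor binds there.

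**Figure D2:**
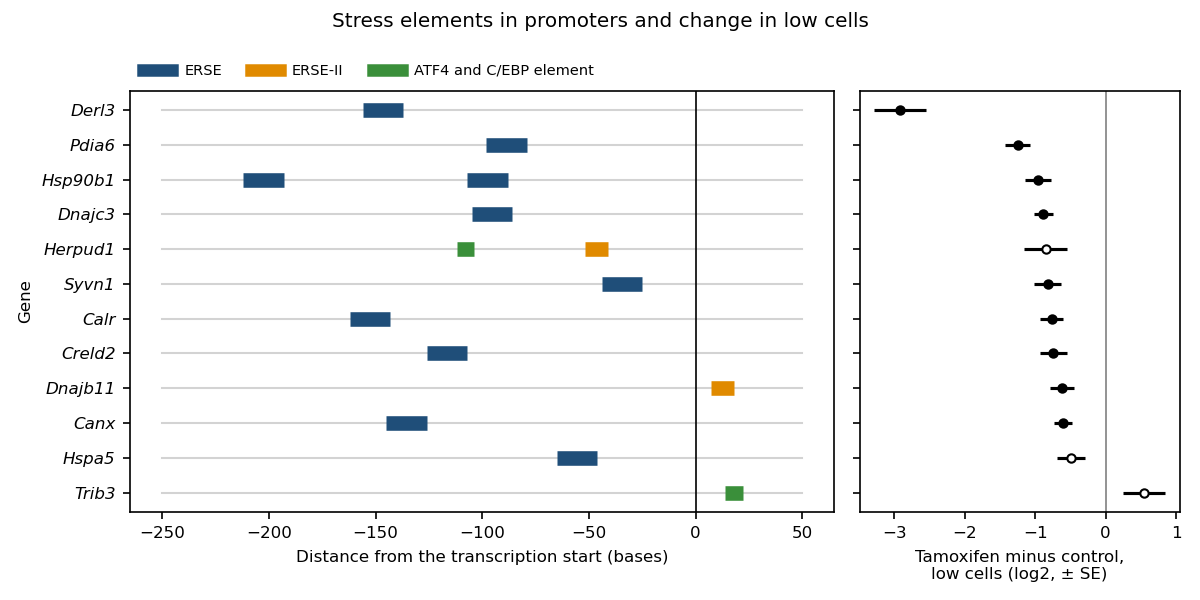
Left, position of each element as distance in bases from the gene start for the 12 genes with any match (blue ERSE, orange ERSE-II, green ATF4 and C/EBP element); right, tamoxifen minus control in low cells (log2, bars are SE, filled where adjusted p was under 0.05). Derl3 lies at -2.92, Hspa5 and Herpud1 are unfilled, and Trib3, with the ATF4 and C/EBP element only, lies at 0.54.

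Among the chaperones, the Hsp70 of the endoplasmic reticulum lumen and its helpers went in different degrees. Hspa5 (BiP), the Hsp70 itself, read 8.69, 8.69 and 8.91 on the control low arrays and 8.0, 8.31, 8.41 and 8.36 on the tamoxifen low arrays. Those groups did not overlap, but the difference of -0.49 ± 0.20 (SE) had an adjusted p of 0.146 and missed the threshold. In high cells Hspa5 read 8.01, 8.34 and 8.86 in control and 7.98, 8.19, 8.01 and 8.77 in tamoxifen mice, and these overlapped. Its negative arrays read 8.90, 8.90 and 9.26 against 8.62, 8.59, 8.52 and 8.71, a difference of -0.41 ± 0.20, adjusted p 0.413. The highest Hspa5 level was thus in the control negative cells, and none of the 3 differences passed the test.

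Hyou1, the large Hsp70 relative that exchanges nucleotide on BiP, fell in low cells with the smallest p of the 39. Its control low arrays were at 8.71, 8.85 and 8.24 and its tamoxifen low arrays at 7.03, 7.16, 6.97 and 7.10, a 2.89-fold fall (-1.53 ± 0.16 log2, SE, adjusted p 7.22e-06). Every tamoxifen low array lay below every control low array by more than the spread within either group. In high cells it read 8.17, 8.31 and 8.19 in control and 7.39, 7.52, 7.70 and 7.93 in tamoxifen mice, with no overlap and a difference of -0.59 ± 0.16, adjusted p 0.0522. In negative cells the arrays overlapped, at 7.87, 7.50 and 7.85 against 7.51, 7.68, 7.81 and 7.57, and the difference was -0.10 ± 0.16.

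Sdf2l1, a partner of the BiP co-chaperone Dnajb11, fell in high and in low cells. In high cells it went from 8.52, 8.39 and 8.16 to 6.32, 6.65, 6.90 and 7.61, a 2.8-fold fall with an adjusted p of 0.00258. In low cells it went from 8.09, 8.70 and 7.95 to 6.70, 6.69, 7.37 and 6.91, a 2.52-fold fall with an adjusted p of 0.0018. The arrays in negative cells were also apart, 8.0, 7.85 and 7.83 against 6.75, 7.09, 7.32 and 7.26, but the difference of -0.79 ± 0.25 had an adjusted p of 0.121. Of the 6 calls in high cells, that of Sdf2l1 alone remained when any 1 array was left out.

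Hsp90b1 (GRP94), the Hsp90 of the endoplasmic reticulum, fell in low cells. It read 11.64, 11.67 and 11.51 in control low and 10.48, 10.39, 10.93 and 10.77 in tamoxifen low cells, a difference of -0.96 ± 0.18 (adjusted p 0.00184). In high cells the difference was -0.64 ± 0.18 (adjusted p 0.0622), and in negative cells -0.49 ± 0.18 (adjusted p 0.226). The groups did not overlap in any of the 3 populations, and the low cells alone passed the test.

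The DnaJ proteins, which hand clients to BiP, did not move as a block. Dnajc3 fell in low cells from 10.74, 10.80 and 10.39 to 9.84, 9.77, 9.76 and 9.67, a difference of -0.88 ± 0.13 (adjusted p 0.000233). Dnajb11 fell by a smaller amount, -0.62 ± 0.17 (adjusted p 0.0216). Dnajb9 overlapped between the low groups, 9.79, 9.27 and 9.45 against 9.52, 8.49, 8.82 and 9.02, with a difference of -0.54 ± 0.21 (adjusted p 0.126). Dnajc10, a reductase that acts in degradation, lay in the other direction in low cells, 0.25 ± 0.27, with overlap and an adjusted p of 0.673. Of the 4, therefore, 2 passed the test in low cells, and none passed it in high or negative cells.

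The disulfide isomerases form and shuffle the bonds of secreted proteins. Pdia6 fell in low cells from 9.09, 9.51 and 9.11 to 7.82, 8.02, 8.02 and 8.06, 2.38-fold (adjusted p 0.000136), and in high cells from 9.09, 9.34 and 9.08 to 8.23, 7.98, 8.12 and 8.73, 1.87-fold (adjusted p 0.00754). P4hb, the founding member of the family, fell 2.49-fold in low cells, from 10.46, 10.53 and 10.07 to 9.15, 8.93, 9.20 and 8.88 (adjusted p 0.000116). In high cells P4hb went from 9.58, 10.31 and 9.97 to 9.15, 9.46, 9.39 and 8.94, 1.65-fold with an adjusted p of 0.034. Pdia3, which works with the lectin chaperones, was at 9.93 to 10.30 in control low and 9.23 to 9.77 in tamoxifen low cells. Its groups did not overlap there, and its difference of -0.49 ± 0.17 missed the threshold (adjusted p 0.0815).

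Calr and Canx, the lectin chaperones that hold glycoproteins until they fold, fell less. Calr read 10.48, 10.59 and 10.33 in control low and 9.61, 9.65, 9.98 and 9.55 in tamoxifen low cells (-0.77 ± 0.16, adjusted p 0.00461). Canx read 10.72, 10.63 and 10.56 in control against 9.97, 9.96, 10.16 and 10.06 in tamoxifen mice, also in low cells (-0.60 ± 0.13, adjusted p 0.00485). Neither passed in high cells (adjusted p 0.194 and 0.16) or in negative cells (adjusted p 0.81 and 0.243). Both carry an ERSE in the window printed above.

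The small stress-induced proteins Creld2 and Manf, both secreted on stress, were lower in low cells of tamoxifen mice. Creld2 read 7.57, 8.19 and 7.54 in control low and 6.96, 6.95, 7.08 and 7.11 in tamoxifen low cells (-0.74 ± 0.19, adjusted p 0.0188). Manf read 6.88, 7.03 and 7.24 in control against 6.27, 5.88, 6.15 and 6.39 in tamoxifen mice (-0.88 ± 0.19, adjusted p 0.0058). In high and negative cells neither passed, with differences between -0.37 (Manf, high) and -0.24 (Creld2, high).

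Nucb2, a calcium-binding protein and the precursor of nesfatin-1, had one of the larger falls. In low cells it went from 11.44, 11.42 and 10.88 to 10.18, 9.64, 9.86 and 9.49, 2.75-fold (adjusted p 0.00114). In high cells it went from 10.78, 11.29 and 10.88 to 9.26, 10.20, 9.74 and 10.65, 2.03-fold (adjusted p 0.0365). In negative cells it was low in both treatments, 9.24, 9.16 and 8.87 in control and 9.45, 9.34, 9.10 and 8.89 in tamoxifen mice, with a difference of 0.10 ± 0.26. The lowest tamoxifen high array still lay within the range of the negative cells, and the other 3 lay above it.

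**Figure D3:**
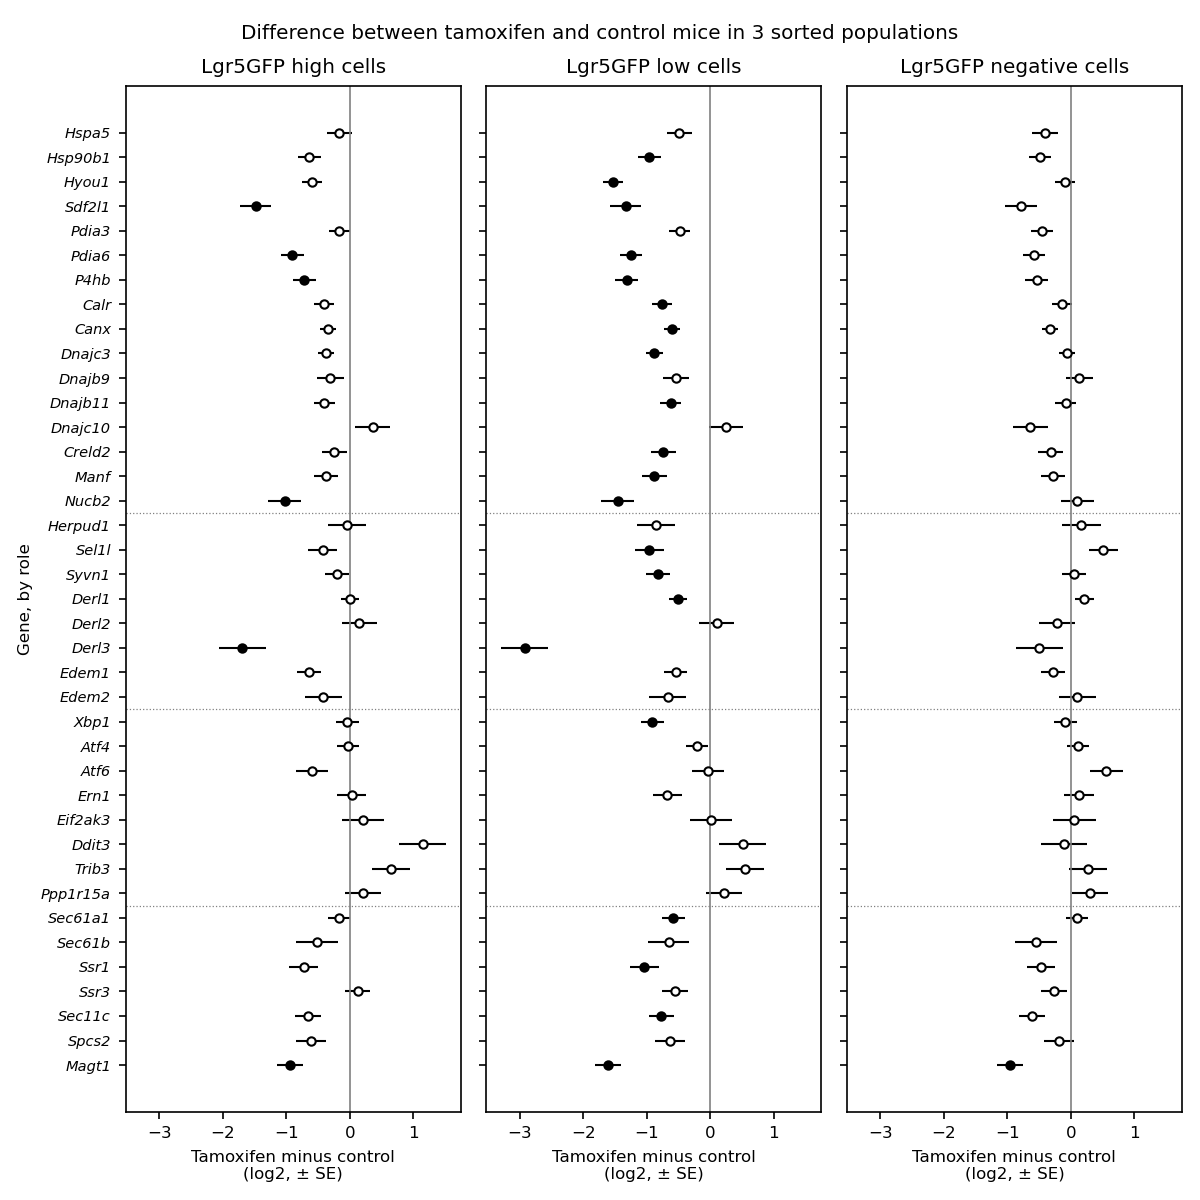
Tamoxifen minus control (log2; bars are SE) for the 39 genes in high, low and negative cells, in the order of their roles; filled points have an adjusted p under 0.05. In low cells 21 points are filled, all to the left of 0, against 6 in high and 1 in negative cells.

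Degradation genes were led by Derl3, a Derlin of the channel through which misfolded proteins leave the endoplasmic reticulum. Derl3 read 9.44, 8.77 and 7.76 on control low arrays and 6.30, 5.63, 5.34 and 5.67 on tamoxifen low arrays, a 7.56-fold fall (-2.92 ± 0.37, adjusted p 5.3e-05). In high cells it read 7.36, 8.41 and 7.25 in control against 5.03, 6.21, 6.19 and 6.51 in tamoxifen mice, a 3.23-fold fall (adjusted p 0.0169). Its negative arrays were low in both groups, 6.03, 5.61 and 5.83 in control against 5.75, 5.38, 5.10 and 5.08 in tamoxifen mice (-0.49 ± 0.37, adjusted p 0.662). By size of fall its low-cell difference ranked 25 of all 22180 genes. All tamoxifen low arrays but array 1, which lay above, were within the range of the negative cells. No tamoxifen high array was within it: array 1 lay below it and the others above. The control low and high arrays all lay above it.

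Its relatives Derl1 and Derl2 behaved differently. Derl1 fell slightly in low cells, 8.55 to 9.14 against 8.13 to 8.45 (-0.51 ± 0.15, adjusted p 0.0348). Derl2 did not pass the test, 9.21 to 9.71 against 9.38 to 9.76, with overlap and a difference of 0.10 ± 0.28 (95% interval -0.48 to 0.68).

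Sel1l and Syvn1 (HRD1), the adaptor and the ubiquitin ligase of the main degradation complex, both fell in low cells. Sel1l went from 8.54, 8.91 and 8.61 to 7.83, 7.80, 7.62 and 7.64 (-0.96 ± 0.23, adjusted p 0.01). In negative cells Sel1l lay the other way, 8.17, 8.09 and 8.34 in control against 9.13, 8.98, 8.81 and 7.93 in tamoxifen mice (0.51 ± 0.23, adjusted p 0.344), with 3 tamoxifen arrays above and 1 below all control arrays. Syvn1 went in low cells from 8.55, 8.20 and 8.39 to 7.47, 7.56, 7.80 and 7.40 (-0.82 ± 0.19, adjusted p 0.00824). The Sel1l call in low cells ended without control low array 2 (adjusted p 0.0641), and the Syvn1 call without control low array 1 (adjusted p 0.0565).

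Herpud1, Edem1 and Edem2 did not pass in any population. Herpud1, which scaffolds the degradation complex and has both an ERSE-II and an ATF4 and C/EBP element, read 9.52, 9.61 and 9.43 in control low and 8.83, 8.69, 8.36 and 8.77 in tamoxifen low cells. That was a clean separation, with a difference of -0.85 ± 0.30 and an adjusted p of 0.0891. In tamoxifen negative cells its 4 arrays were spread from 7.49 to 9.55, the widest of its 6 groups. Edem1, which extracts misfolded glycoproteins, read 7.97, 8.20 and 7.79 in control against 7.77, 7.34, 7.35 and 7.30 in tamoxifen mice in low cells (-0.55 ± 0.19, adjusted p 0.0767). Its arrays in low cells did not overlap, with tamoxifen low array 1 close to the controls. Edem2, a mannosidase that trims glycans for disposal, differed by -0.67 ± 0.29 in low cells (adjusted p 0.175).

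The transcription factor Xbp1 was the one gene of the sensor arm that fell. It read 9.80, 10.06 and 9.41 on control low and 8.82, 8.88, 8.82 and 8.87 on tamoxifen low arrays, a 1.88-fold fall (-0.91 ± 0.18, adjusted p 0.00278). In high cells the arrays overlapped, 9.39, 9.62 and 9.47 against 9.39, 9.71, 9.50 and 9.19 (-0.04 ± 0.18, 95% interval -0.41 to 0.33). In negative cells they overlapped too, 8.74, 8.71 and 8.63 against 8.76, 8.95, 8.57 and 8.13 (-0.09 ± 0.18). The 4 tamoxifen low arrays lay close together and the 3 control low arrays did not. These are levels of the whole transcript, which do not tell the spliced, active form from the unspliced one.

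The 3 membrane sensors did not pass. Ern1, the kinase and nuclease that splices Xbp1, read 7.50, 7.41 and 7.25 in control low and 7.08, 6.40, 6.60 and 6.75 in tamoxifen low cells, apart but with an adjusted p of 0.0794 (-0.67 ± 0.23). Eif2ak3, the kinase PERK, overlapped, 7.35, 6.81 and 6.85 against 7.86, 6.88, 6.50 and 6.81 (0.01 ± 0.33). Atf6 overlapped in low cells, 7.14, 7.15 and 7.46 against 7.23, 7.53, 6.89 and 7.21 (-0.04 ± 0.25). In high cells Atf6 read 8.39, 7.64 and 7.76 in control and 7.33, 7.06, 7.65 and 7.32 in tamoxifen mice (-0.59 ± 0.25, adjusted p 0.234), and in negative cells 6.96, 6.75 and 6.94 in control against 8.23, 7.39, 7.40 and 6.76 in tamoxifen mice (0.56 ± 0.25, adjusted p 0.363). Its differences in high and negative cells thus had opposite signs, and neither passed.

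Ddit3, Trib3 and Ppp1r15a, of the PERK branch, lay above 0 in low and high cells without passing, and Atf4 did not. Atf4, the factor made when translation slows, lay in the range 9.79 to 10.93 over all 21 arrays. Its low arrays were at 10.66, 10.73 and 10.68 in control and 10.61, 10.28, 10.44 and 10.59 in tamoxifen mice (-0.21 ± 0.17, adjusted p 0.534). Ddit3 (CHOP), which promotes cell death under lasting stress, read 5.71, 6.90 and 6.38 in control high and 7.04, 8.51, 7.51 and 6.86 in tamoxifen high cells. That is a 2.21-fold higher mean, with 1 tamoxifen array below the highest control array (1.15 ± 0.36, adjusted p 0.098). Without tamoxifen high array 4 the adjusted p was 0.0329. In low cells Ddit3 read 7.03, 6.69 and 6.58 in control against 8.34, 7.09, 6.76 and 6.90 in tamoxifen mice, with array 1 well above the rest (0.51 ± 0.36, adjusted p 0.468). In negative cells it read 6.77, 6.68 and 6.69 in control against 6.47, 6.74, 6.87 and 6.31 in tamoxifen mice (-0.11 ± 0.36).

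Trib3, a pseudokinase induced by Atf4 and Ddit3, read 4.06, 4.46 and 4.22 in control high and 4.87, 5.34, 4.88 and 4.50 in tamoxifen high cells. It was the only gene of the 8 sensors and factors whose groups in high cells did not overlap, and the difference of 0.65 ± 0.30 had an adjusted p of 0.276. In low cells Trib3 read 4.53, 4.10 and 4.14 in control against 5.29, 4.51, 4.54 and 4.85 in tamoxifen mice (0.54 ± 0.30, adjusted p 0.32), and in negative cells 4.43, 4.37 and 4.11 in control against 5.43, 5.03, 3.90 and 3.93 in tamoxifen mice. Ppp1r15a (GADD34), which restores translation, read 7.0, 6.85 and 6.56 in control against 7.49, 6.88, 6.62 and 7.07 in tamoxifen mice in low cells (0.21 ± 0.28). On tamoxifen low array 1, Ddit3, Trib3, Ppp1r15a and Eif2ak3 were each the highest of the 7 low arrays.

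**Figure D4:**
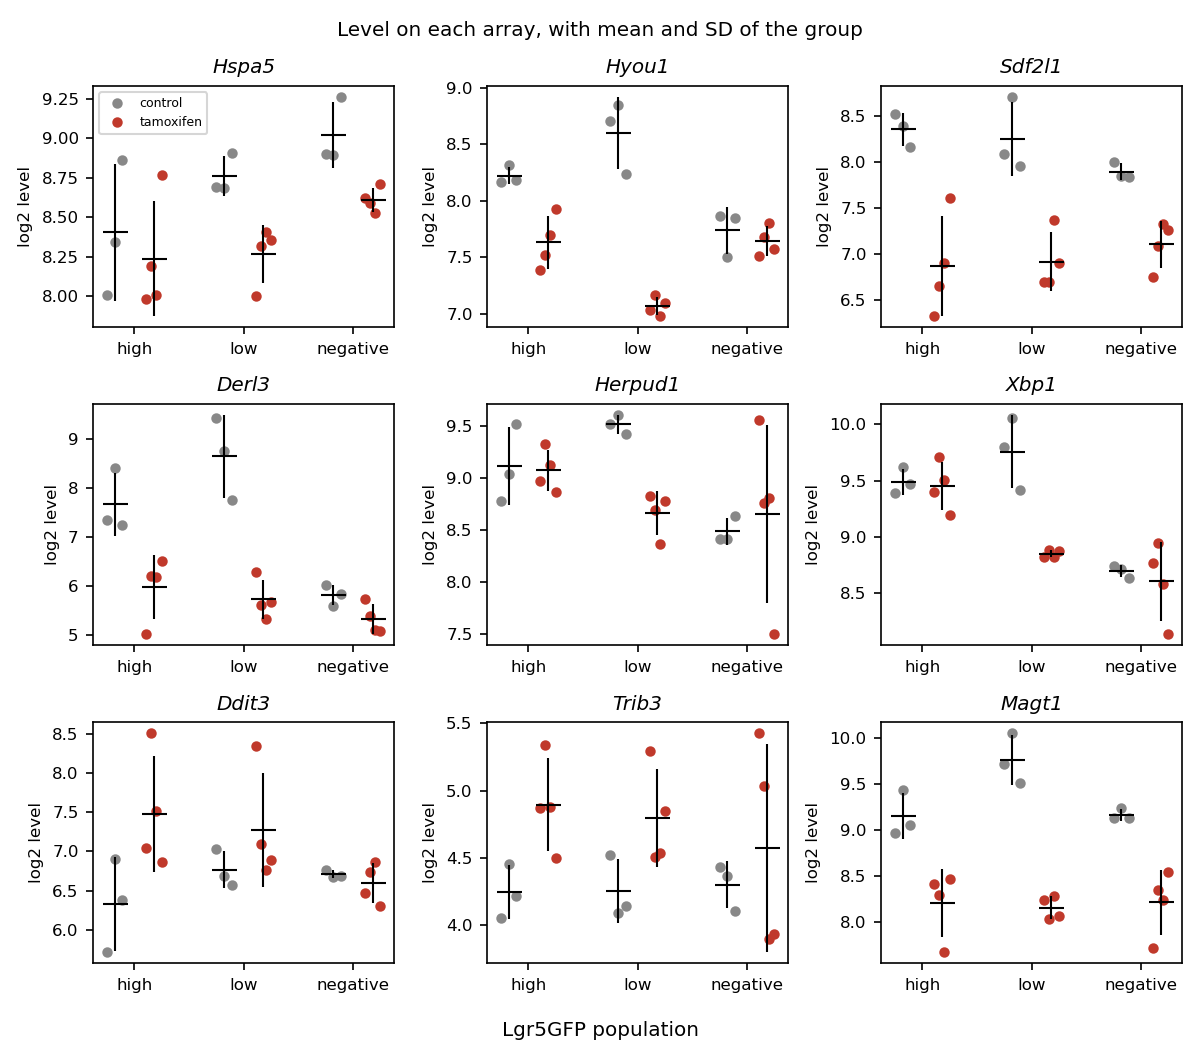
Log2 level of 9 genes on each array by population (grey control, 3 arrays; red tamoxifen, 4 arrays), with the mean and SD of each group as a cross. Hyou1, Derl3, Xbp1 and Magt1 show tamoxifen low arrays wholly below control low arrays, while Ddit3 and Trib3 show tamoxifen arrays that reach above the controls.

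Genes of translocation, which carry new proteins into the endoplasmic reticulum, were lower in all 7 cases in low cells, and 4 passed. Magt1, a subunit of the glycosylating oligosaccharyltransferase, went from 9.72, 10.06 and 9.51 in control low to 8.24, 8.04, 8.29 and 8.06 in tamoxifen low cells, a 3.04-fold fall (adjusted p 5.85e-05). In high cells it went from 8.96, 9.44 and 9.05 to 8.42, 8.29, 7.67 and 8.47, 1.92-fold (adjusted p 0.0169). In negative cells it went from 9.13, 9.24 and 9.13 to 7.72, 8.35, 8.24 and 8.54, 1.94-fold (adjusted p 0.0151). Tamoxifen and control arrays were apart in all 3 populations. The call in negative cells ended without tamoxifen negative array 1 or any 1 control negative array, with adjusted p up to 0.078.

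The channel and its partners fell by less. Ssr1, of the translocon-associated complex, went in low cells from 9.75, 10.10 and 10.20 to 8.89, 8.55, 9.26 and 9.21 (-1.04 ± 0.23, adjusted p 0.00603). Sec61a1, the channel itself, went from 9.21, 9.28 and 9.28 to 8.51, 8.90, 8.68 and 8.62 (-0.58 ± 0.18, adjusted p 0.0465, and 0.0522 with the sorting run as a random replicate block). Sec11c, a catalytic subunit of signal peptidase, went from 10.24, 10.63 and 10.49 to 9.66, 9.51, 9.87 and 9.68 (-0.77 ± 0.20, adjusted p 0.0193). Sec61b, Ssr3 and Spcs2 were apart in low cells with differences of -0.66, -0.55 and -0.64, and none passed (adjusted p 0.257, 0.099 and 0.101).

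Across the 39 genes, tamoxifen and control arrays did not overlap, with tamoxifen lower, for 31 genes in low, 11 in high and 13 in negative cells. Over all genes the share with such groups was 9.06%, 4.6% and 7.38%. With tamoxifen higher they were apart for 0, 1 and 1 gene, against 12.1%, 5.78% and 7.89% of all genes. Set against the control mean of their population, the 4 tamoxifen low arrays had 32, 34, 37 and 34 of 39 genes below it, with median shifts of -0.73, -0.84, -0.58 and -0.66. The tamoxifen high arrays had 30, 25, 30 and 31 genes below it, with median shifts of -0.37, -0.26, -0.40 and -0.30. The median shift was thus below 0 on all 8 of these arrays. In the tamoxifen negative arrays 25, 25, 23 and 35 of 39 genes lay below the control mean. The share of all genes below it on each array is not given here. These counts alone are therefore not read as particular to the 39 genes.

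The count of calls in low cells changed little with single arrays. It was 16 to 20 with any 1 array of the comparison left out, and 14 of the 21 genes were called each time: Hsp90b1, Hyou1, Sdf2l1, Pdia6, P4hb, Calr, Canx, Dnajc3, Manf, Nucb2, Derl3, Xbp1, Ssr1 and Magt1. Dnajb11, Creld2, Sel1l, Syvn1, Derl1, Sec61a1 and Sec11c lost the call without at least 1 array, with adjusted p up to 0.263 (Derl1). Derl1 lost it without tamoxifen low array 1, 2 or 4 or control low array 1, and Sec61a1 without any 1 of the 7 but tamoxifen low array 2. Dnajb11 lost it without tamoxifen low array 1 or control low array 1 or 2, Creld2 without tamoxifen low array 1 or 2 or control low array 2, and Sec11c without tamoxifen low array 2 or control low array 2 or 3.

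Calls in high cells rested more on single arrays. The count was 1 without control high array 2 and 12 without tamoxifen high array 4. Without control high array 2 the adjusted p was 0.0516 for Pdia6, 0.113 for Derl3 and 0.1 for Magt1. Derl3 also lost its call without tamoxifen high array 1, P4hb without that array or control high array 2 or 3, and Nucb2 without any 1 of the 7 but tamoxifen high array 4. With only the 7 high arrays in the fit it was 0 (19 genes of 39 had an unadjusted p under 0.05 in the fit over all groups). In negative cells the count was 0 without tamoxifen negative array 1 or any 1 control negative array, and 2 without tamoxifen negative array 4. Counts over all genes in these fits are not given here, so such shifts need not be particular to the 39 genes.

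The sorted populations themselves were then compared within each treatment. In control mice 10 of 39 genes were higher and 0 lower in low than in negative cells, against 1.85% and 3.41% of all genes. They were Nucb2 (2.16 ± 0.28), Derl3 (2.83 ± 0.40), Edem2 (1.28 ± 0.31), Xbp1 (1.07 ± 0.19), Syvn1 (0.94 ± 0.20), Hyou1 (0.86 ± 0.17), Derl1 (0.76 ± 0.16), Edem1 (0.74 ± 0.20), Sec61a1 (0.68 ± 0.19) and Dnajc3 (0.67 ± 0.14). Of the 8 degradation genes 5 were thus higher in low cells. Derl3 had the largest difference, with the lowest control low array at 7.76 and the highest control negative array at 6.03. The count was 5 without control low array 1. With the sorting run as a fixed replicate block the adjusted p of Edem1 was 0.0576.

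Markers of cell types moved with this comparison, and their part in it was not tested. In low against negative cells 4 of 6 chief cell and 2 of 6 tuft cell markers were higher and 5 of 5 surface pit cell markers lower. The summed log2 levels of the pit markers were 41.3 to 46.0 in control low and 59.4 to 59.8 in control negative arrays, and those of the chief cell markers 65.4 to 67.5 and 57.5 to 59.4. Of the other lists, 1 of 7 parietal, 1 of 4 fibroblast and 0 of 6 endocrine cell markers were higher, and 3 of 6 other immune cell markers lower.

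High against negative cells of control mice were compared in the same way. There 10 genes were higher and 1 lower, against 4.64% and 7.66% of all genes. Nucb2 (1.89 ± 0.28), Derl3 (1.85 ± 0.40), Dnajb9 (1.18 ± 0.22), Edem2 (1.17 ± 0.31), Atf6 (1.05 ± 0.27) and Xbp1 (0.80 ± 0.19) led, and Syvn1, Sec61a1, Dnajc3 and Derl1 followed at 0.56 to 0.77. Dnajc10 was lower in high cells, 7.95, 8.38 and 8.94 against 9.42, 9.58 and 9.48 in negative cells (-1.07 ± 0.29, adjusted p 0.0179). The count of 11 was 7 without control high array 2 or control negative array 3, and 6 without control negative array 2. This comparison shares the control negative arrays with the one before it. Beside it, 5 of 6 tuft cell markers were higher in high cells, among them Dclk1 (15-fold) and Pou2f3 (17-fold), and so were 4 of 6 chief cell markers, while 1 was lower. All 5 pit cell markers and 5 of 6 endocrine cell markers were lower, among them Muc5ac (39.1-fold) and Slc18a2 (14.3-fold). The part of these cell types in the result was not tested.

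High and low cells of control mice differed in 0 of the 39 genes by limma, against 1.34% of all genes. At an unadjusted limma p under 0.05, to which that share does not apply, there were 6. Derl3 had the largest gap, -0.98 ± 0.40, with overlap and a 95% interval of -1.81 to -0.15. Hyou1 differed by -0.38 ± 0.17, adjusted p 0.434. Beside them, 5 of 7 parietal and 5 of 6 endocrine cell markers were lower in high than in low cells.

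In tamoxifen mice few genes separated the populations. Low against negative cells gave 0 higher and 3 lower, against 0.509% and 1.73% of all genes: Sel1l (-0.99 ± 0.21), Ssr1 (-0.93 ± 0.21) and Hyou1 (-0.58 ± 0.15). High against negative cells gave 3 higher, Xbp1 (0.85 ± 0.17), Nucb2 (0.77 ± 0.24) and Dnajb9 (0.74 ± 0.19), and 1 lower, Ssr1 (-0.72 ± 0.21), against 3.33% and 6.97% of all genes. High against low cells gave 3 higher and 0 lower, Dnajb9 (0.77 ± 0.19), Hyou1 (0.57 ± 0.15) and Dnajc3 (0.49 ± 0.12), against 1.46% and 1.77% of all genes. Xbp1 in high against negative cells and Sel1l in low against negative cells kept their calls without any 1 array. The other calls here did not: the count fell to 1 in low against negative cells without tamoxifen low array 1 or 2 or tamoxifen negative array 3 or 4. It fell in high against negative cells to 2 without tamoxifen high array 3 and to 1 without tamoxifen negative array 3. In high against low cells it fell to 1 without tamoxifen low array 1 and to 0 without tamoxifen low array 2, 3 or 4. With the sorting run as a fixed replicate block, the adjusted p was 0.0715 for Sel1l and 0.0533 for Hyou1 in low against negative cells. In that fit it was 0.084 for Dnajb9 and 0.0886 for Nucb2 in high against negative cells, and 0.0558 for Hyou1 in high against low cells. In high against low cells the count was 2 with that block and 5 with the run as a random block.

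Markers moved with these comparisons too, and their part was not tested. In tamoxifen mice 4 of 6 chief and 4 of 6 tuft cell markers were higher, and 5 of 5 pit and 6 of 6 endocrine cell markers lower, in high than in negative cells. In low against negative cells 3 of 6 chief cell markers were higher, and 2 of 5 pit and 4 of 6 endocrine cell markers lower. In high against low cells 5 of 6 tuft cell markers were higher, and 4 of 5 pit and 3 of 7 parietal cell markers lower.

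**Figure D5:**
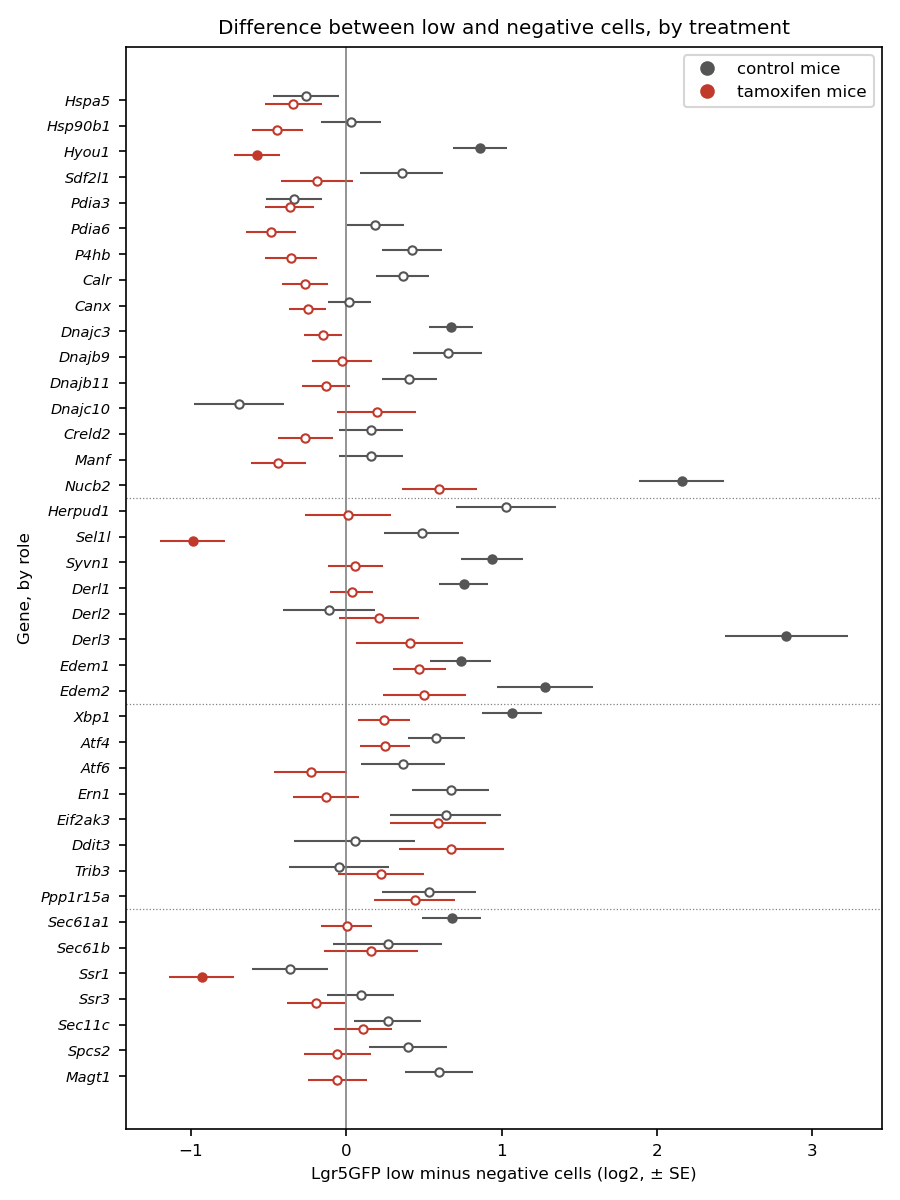
Low minus negative cells (log2; bars are SE) for the 39 genes in control mice (grey) and tamoxifen mice (red), filled where adjusted p was under 0.05. The 10 genes filled to the right in control mice include Derl3 at 2.83 and Nucb2 at 2.16, and Sel1l, Ssr1 and Hyou1 are filled to the left in tamoxifen mice.

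Side by side, the low minus negative difference was 2.83 in control and 0.41 in tamoxifen mice for Derl3, and 2.16 and 0.60 for Nucb2. It was 0.86 and -0.58 for Hyou1, and 1.07 and 0.24 for Xbp1. The test of the change itself is the interaction, the tamoxifen difference in low cells minus that in negative cells. It was below 0 and passed for 5 of 39 genes, against 0.667% of all genes, and above 0 for 0, against 0.171%. They were Hyou1 (-1.44 ± 0.23, adjusted p 0.00305), Derl3 (-2.42 ± 0.52, adjusted p 0.0283), Sel1l (-1.47 ± 0.32, adjusted p 0.0292), Dnajc3 (-0.82 ± 0.19, adjusted p 0.0363) and Nucb2 (-1.56 ± 0.37, adjusted p 0.0463). With the sorting run as a fixed replicate block the count was 1, Hyou1, and the adjusted p was 0.0696 for Derl3, 0.0818 for Sel1l, 0.0905 for Dnajc3 and 0.0988 for Nucb2. With the run as a random block it was 5. Xbp1 did not pass (-0.82 ± 0.25, adjusted p 0.177). The interaction shares its control arrays with the comparisons of populations above.

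Hyou1 alone kept its interaction without any 1 of the 14 arrays. The count was 5 without control low array 3, 7 without tamoxifen negative array 4, 3 without tamoxifen low array 1, and 1 or 2 without any other 1 array. High minus negative gave 0 of 39, against 0.248% of all genes, with 7 at an unadjusted p under 0.05 and 2 calls without tamoxifen negative array 4. At an unadjusted p under 0.05, to which the adjusted shares do not apply, low minus high gave 10 of 39. At the adjusted threshold it gave 0 of 39, against 0.0271% of all genes. The tamoxifen difference in low cells was therefore not shown to differ from that in high cells for any of the 39 genes. Hyou1 (-0.94 ± 0.23, adjusted p 0.265) and Xbp1 (-0.87 ± 0.25, adjusted p 0.393) had 95% intervals of -1.42 to -0.47 and -1.40 to -0.34.

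Further genes of the same pathways, listed by role and apart from the 39, were counted in the same fits. Over all genes 2.98% fell and 5.35% rose in low cells. There 5 of 20 other folding genes fell and 0 rose, led by Ero1b, the oxidase that recharges disulfide isomerases (-2.43 ± 0.32, adjusted p 7.17e-05), and Txndc11 (-1.29 ± 0.17, adjusted p 0.000101). Of 18 other degradation genes 6 fell and 0 rose, led by Edem3 (-0.96 ± 0.15) and the ubiquitin ligase Rnf5 (-0.91 ± 0.18). Of 28 other genes of translocation and N-glycosylation 10 fell, led by Tram1 (-1.25 ± 0.16) and Rpn1 (-1.0 ± 0.16), and 1 rose, Sec11a (0.57 ± 0.16). Of 15 genes of glycan processing and exit from the endoplasmic reticulum 5 fell and 0 rose, led by the cargo receptor Lman1 (-1.15 ± 0.19) and Sec16a (-1.0 ± 0.18). The medians of these 4 lists were -0.26, -0.24, -0.42 and -0.27, against 0.01 over all genes.

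Known targets of Atf4 had more rises than falls in low cells. Of 17 such genes 7 rose and 1 fell, against 5.35% and 2.98% of all genes, with a median of 0.49. Atf5, itself a stress factor (0.68 ± 0.16, adjusted p 0.00853), and Slc7a11, a cystine transporter (2.04 ± 0.52, adjusted p 0.0156), rose, and Asns, asparagine synthetase, fell (-0.62 ± 0.16, adjusted p 0.0154). The Slc7a11 mean was 2.86 in control low cells, below the background level of 4.16, and 4.89 in tamoxifen low cells. The size of its rise is therefore uncertain. In negative cells 4 of 17 rose and 0 fell, against 1.62% and 0.703% of all genes. Nupr1 (2.16 ± 0.22) and the amino acid transporter Slc7a5 (1.99 ± 0.38) led there. In high cells 2 of 17 rose, Atf5 (0.79 ± 0.16) and Atf3 (1.35 ± 0.36), and 0 fell, against 1.7% and 1.04% of all genes. Many of these genes are also induced by other stresses.

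Among 14 other sensors and factors, 2 fell and 1 rose in low cells, against 2.98% and 5.35% of all genes, so that the share that rose was near that of all genes. Creb3l1 (-1.31 ± 0.23) and Creb3l4 (-0.99 ± 0.30), membrane-bound relatives of Atf6, fell, and Eif2ak2, the kinase that senses double-stranded RNA, rose (1.19 ± 0.28). Creb3l4 and Creb3l1 also fell in negative cells (-1.87 ± 0.30 and -1.03 ± 0.23), where 0 rose, against 0.703% and 1.62% of all genes that fell and rose. In high cells none of the 14 passed, and 2 had an unadjusted p under 0.05. In high cells, where 1.04% of all genes fell and 1.7% rose, 1 of 20 other folding genes and 2 of 18 other degradation genes fell: Ero1b (-1.32 ± 0.32), Rnf5 (-0.76 ± 0.18) and Edem3 (-0.68 ± 0.15). There 5 of 28 translocation and N-glycosylation genes fell, with Spcs3 (-1.08 ± 0.22) and Tusc3 (-0.87 ± 0.19) at the smallest p, and Tram2 rose (1.51 ± 0.40). In negative cells 2 of 20 other folding genes fell, Ppib (-0.54 ± 0.13) and Fkbp9 (-0.91 ± 0.23), and 0 of the 18, 28 and 15 genes of the remaining lists passed.

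Other genes moved with these results, and their part in them was not tested. Bhlha15 (MIST1), the factor that maintains the secretory apparatus of chief cells, fell in low cells from 8.14 ± 0.36 (SD, n = 3) to 5.12 ± 0.35 (SD, n = 4), with an adjusted p of 2.95e-05, and in high cells, with overlap and a difference of -1.64 ± 0.36 (adjusted p 0.0177). In negative cells its difference was -0.54 ± 0.36 (adjusted p 0.613). Lgr5 fell in low cells, with a difference of -0.86 ± 0.21 (adjusted p 0.011); the 3 control and 4 tamoxifen low arrays did not overlap. Pgc and Cblif, chief cell products, differed by -0.03 and -0.27 in low cells and did not pass. Pgc lay near the highest value of the table, 13.55, where a change may not be readable.

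Marker lists of cell types that the gates could hold moved as well. Single calls in them are to be read against the 2.98% of all genes that fell and 5.35% that rose in low cells, and against 1.04% that fell in high and 0.703% in negative cells. In low cells 2 of 6 chief cell markers fell and 0 rose, and the sum of their log2 levels was 65.4 to 67.5 in control and 58.4 to 60.6 in tamoxifen arrays. For parietal cell markers 3 of 7 fell, with sums of 58.4 to 62.2 and 46.7 to 52.1. For mucous neck cell markers 2 of 5 fell, with sums of 47.1 to 51.6 and 37.2 to 45.3. Tuft cell markers fell in 5 of 6, with sums of 47.6 to 55.5 and 29.9 to 39.3, and endocrine cell markers in 2 of 6, with sums of 53.2 to 60.9 and 38.4 to 50.9. In all 5 lists the control and tamoxifen low arrays did not overlap. Of 5 surface pit cell markers 1 rose, with sums of 41.3 to 46.0 in control and 46.0 to 50.2 in tamoxifen low arrays. In high cells 1 of 6 chief cell markers fell, with sums of 59.6 to 65.7 in control and 57.8 to 61.3 in tamoxifen arrays, and 3 of 7 parietal cell markers fell, with sums of 45.7 to 46.9 and 34.0 to 40.3. There 1 of 6 tuft cell markers fell, with sums of 58.3 to 62.7 and 42.3 to 58.5. In low cells 1 of 6 other immune cell markers rose and 1 fell, 1 of 4 pancreatic acinar cell markers fell, and 0 of 4 fibroblast and 0 of 3 endothelial cell markers passed.

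In negative cells 3 of 5 mucous neck cell markers fell, with sums of 48.2 to 49.5 in control and 37.6 to 42.0 in tamoxifen arrays. Of 7 parietal cell markers 3 fell, Atp4a, Kcne2 and Kcnj16, and 1 rose, Cckbr (2.03 ± 0.42). Their sums, with Cckbr included, were 48.9 to 53.2 in control and 41.8 to 49.4 in tamoxifen arrays. Of 6 endocrine cell markers 1 rose, with sums of 54.6 to 57.5 and 62.7 to 69.1. None of the 6 chief, 6 tuft and 5 pit cell markers passed there. These negative arrays are the reference of the interaction, and the part of these cell types in it was not tested.

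Plasma cells also hold much of this machinery. Of their 6 measured markers, 3 lay above the background level of 4.16 in each of the 6 groups. Jchain, Tnfrsf17 and Cd79a had means below it in all 6 groups, Mzb1 lay at 4.40 to 4.55 and Pou2af1 at 4.30 to 4.86. Over the 6 measured plasma and B cell markers the sum of log2 levels was 27.2 to 28.1 in control low and 29.0 to 29.3 in tamoxifen low arrays. Sdc1, which epithelium also expresses, rose in low (1.03 ± 0.21) and high cells (1.31 ± 0.21).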

How the data were processed

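RNA from 21 sorted samples was amplified with a whole-transcriptome kit and hybridised to 1-colour arrays, per the labels' protocols. The authors deposited log2 values. The submitters' processing notes name R 3.2.3, limma 3.26.8, RMA and oligo with no role. RMA subtracts background and sets array distributions alike, so a shift common to all genes would not be visible. The genome build of the array design is not given in the sources used here.

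Of 41345 probe sets, 25335 were listed in the platform annotation, 23521 of them with 1 gene and 1814 with several, which were left out. The brightest probe set was kept for the 1082 genes that had several, which left 22180 genes. The values were used without further normalization. Group means of the 6 groups were fitted over all 21 arrays with limma 3.58.1 in R 4.3.3 (lmFit and eBayes, 15 residual degrees of freedom). The 12 comparisons were two-sided, with Benjamini-Hochberg adjustment over all genes in each. The procedure was tested on simulated data. No array was dropped, and 0 pairs of arrays were identical.

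All 40 genes may be named. Single arrays are given for a panel chosen by role, for genes with an interaction call, and for genes whose groups were apart with an adjusted p under 0.01. From the other pathway lists, up to 2 called genes in each direction with the smallest adjusted p are named per comparison. The members and lists were chosen with earlier results of these data known.

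The number in the titles, which was taken as the sorting run, was checked as a pairing of populations. In control mice, deviations from group means correlated at 0.09 to 0.32 (9 pairs) for arrays of the same run and at -0.27 to 0.03 (18 pairs) for arrays of different runs, so the run pairs these arrays. In tamoxifen mice the same values were -0.16 to 0.41 (10 pairs) and -0.28 to 0.34 (38 pairs), with no such separation. Values with the run as a replicate block stand beside the comparisons of populations and the interactions whose calls they change. Alternatives were cyclic loess, the mean of probe sets, moderation with trend, array weights, the compared groups alone, the dimmest 25% of genes left out, replicate blocks and leaving out each array.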

Additional observations from a re-analysis of the deposited data

Results flagged for a closer look

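The tamoxifen difference in low cells was below that in negative cells, by the test of the difference itself, for 5 genes. The interaction was -1.44 for Hyou1 (limma adjusted p 0.00305), -0.82 for Dnajc3 (0.0363), -1.56 for Nucb2 (0.0463), -1.47 for Sel1l (0.0292) and -2.42 for Derl3 (0.0283). For Sel1l and Nucb2 the differences in the 2 populations had opposite signs. With the sorting run as a fixed replicate block, Hyou1 alone passed.

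In 4 of 117 gene and group combinations with 4 arrays, 1 array stood apart from the other 3 by Dixon's criterion, which chance gives in about 1 in 20. Pdia3 read 9.78 on tamoxifen negative array 1, and the highest of the other 3 read 10.04. Derl2 read 9.76 on tamoxifen low array 1, against 9.38 to 9.43. Edem1 read 7.77 on the same array, against 7.30 to 7.35. Spcs2 read 8.71 on tamoxifen low array 2, against 9.15 to 9.20.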

How the results depend on the processing

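Counts are of the 39 genes called by limma. Counts over all genes in the same fits are not given here, so a shift need not be particular to these genes. Those in low cells were 20 to 26 under the alternatives that kept all arrays, against 21. In high cells the count was 0 with only the compared groups and 11 with the replicate number as a block, against 6. In negative cells it was 8 with array weights, 2 with only the compared groups and 5 with the replicate number as a block, against 1. In tamoxifen mice, high against negative cells gave 7 with cyclic loess, 1 with array weights and 1 with only the compared groups, against 4. Low against negative cells gave 1 with only the compared groups, against 3. High against low cells gave 5 with cyclic loess, 0 with array weights, 0 with only the compared groups and 5 with the sorting run as a random replicate block, against 3. The low minus negative interaction gave 1 with the run as a fixed replicate block, against 5. That block could not be fitted for tamoxifen against control, since each run held 1 treatment. The cause of these shifts was not tested.

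Leaving out each array in turn gave 1 to 12 calls in high, 16 to 20 in low and 0 to 2 in negative cells for tamoxifen against control. In control mice it gave 6 to 10 for high against negative, 5 to 9 for low against negative and 0 to 0 for high against low cells. In tamoxifen mice it gave 1 to 6, 1 to 2 and 0 to 3 for the same comparisons. The interactions gave 0 to 2 (high minus negative), 1 to 7 (low minus negative) and 0 to 0 (low minus high). For single genes, 1175 values under the other alternatives kept their side of the threshold, 41 newly passed and 43 no longer passed, and none turned direction while called. In low cells 14 of 21 calls held under every alternative, and in high cells 0 of 6. The number of arrays, 3 or 4 a group, limits the precision.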
